A study of Homo sapiens with 2 samples.

Results

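The genes that encode histone lysine methylation enzymes were examined in PRO-cap data of HUDEP-2, a human erythroid progenitor cell line, in its wild-type form. Members were the protein-coding genes of the RefSeq gene table of GRCh38.p14 (hg38) whose symbols begin with KMT, KDM, SETD, NSD, SUV39H or PRDM, with a digit where the family numbers its genes, together with EHMT1 and EHMT2. SETDB1 and SETDB2 were included, whereas the readthrough SETDB2-PHF11 and the sterol enzyme gene NSDHL share a prefix only and were not counted. The rule gave 61 genes, of which 60 on chromosomes 1 to 22 and X were analysed, out of 19821 protein-coding genes. They comprised 26 methyltransferase and SET-domain genes (writers), 19 demethylase genes (erasers) and 15 PRDM genes. The series held 1 group of 2 biological replicates with no treatment, mutation or second cell type, so that the data describe where transcription started in these cells. PRO-cap labels nascent RNA by a nuclear run-on and captures its capped 5' end. The deposited data were 1 list of called start positions per strand, 13229 forward and 13166 reverse, without a strength for any call and without a value for either replicate.

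Lysine methylation of histone tails is set by SET-domain methyltransferases, which take the methyl group from S-adenosylmethionine. It is removed by the flavin-dependent LSD enzymes or by JmjC-domain enzymes that need iron and 2-oxoglutarate. Methylated H3K4 marks promoters and enhancers, H3K36 methylation marks transcribed gene bodies, and H3K9, H3K27 and H4K20 methylation are best known from silent chromatin. The PRDM proteins carry a SET-related domain beside zinc fingers. Several of them act in germ cells, neurons or lymphocytes, and only some have a known methyltransferase activity. In erythroid cells LSD1, the product of KDM1A, is recruited to DNA by the repressor GFI1B.

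A call was taken as a called start when it lay within 500 bp of an outer end of the gene and pointed into it. The rule takes either end without the strand of the gene, so that a call at a 3' end also counts. Where a call is given below as the start of another gene, the same rule was used. The cell identity markers matched the label: all 10 erythroid marker genes, among them GATA1, KLF1 and ALAS2, had a called start, against none of the 4 markers of T and B cells and none of the 4 myeloid markers. The megakaryocyte list had 1 of 4, ITGA2B, and the stromal and liver lists had none of their 2 genes each. The score column was 0 in every row, so that depth and the threshold of calling are unknown. The lists cannot tell a silent gene from a gene transcribed below the threshold or in few of the cells. Intervals are Wilson intervals at 95% confidence. They reflect the number of genes counted and say nothing of the spread between the replicates.

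Of the 60 enzyme genes, 35 had a called start (58.3%, interval 45.7 to 69.9%), against 41.4% of all protein-coding genes (8207 of 19821). By role, 17 of 26 writers (65.4%, 46.2 to 80.6%), 13 of 19 erasers (68.4%, 46.0 to 84.6%) and 5 of 15 PRDM genes (33.3%, 15.2 to 58.3%) were called. The intervals of the 3 roles overlapped one another, and that of the PRDM genes held the 41.4% of all protein-coding genes. Where the RefSeq promoter table gives the strand, 32 of 53 enzyme genes (60.4%, 46.9 to 72.4%) had the call at their outer 5' end, against 42.9% of 15812 protein-coding genes. Counting a same-strand call within 500 bp of any of the starts that this table lists for a gene, 39 of 53 were called (73.6%, 60.4 to 83.6%), against 47.1% of protein-coding genes. That count was 19 of 24 writers (79.2%), 15 of 18 erasers (83.3%) and 5 of 11 PRDM genes (45.5%, 21.3 to 72.0%). The genes gained in this way were NSD1, SETD3, SETD9, SUV39H1, KDM3A, KDM4C and PRDM11, whose listed starts lie inside the outer coordinates. A call of any kind, on either strand, inside the gene or up to 500 bp outside it was present at 50 of 60 enzyme genes (83.3%, 72.0 to 90.7%), against 52.6% of protein-coding genes. This held for 24 of 26 writers, 17 of 19 erasers and 9 of 15 PRDM genes. Enzyme genes were also longer than protein-coding genes in general, with a median of 61.0 kb against 24.5 kb, and the part of length in these shares was not tested.

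**Figure D1:**
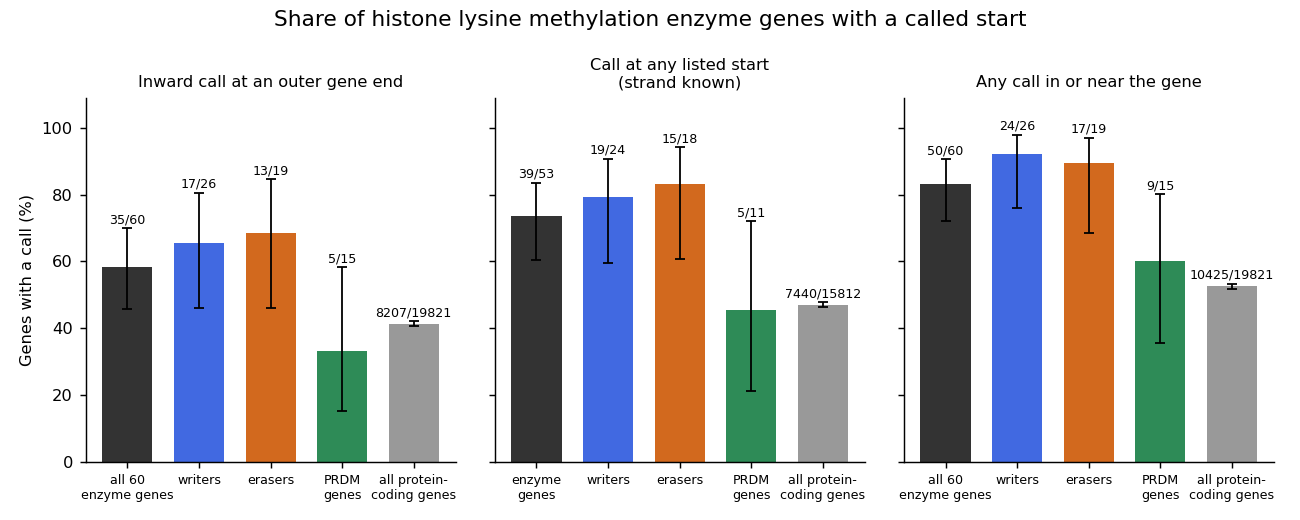
Share of genes with a call (%) by 3 definitions, for all enzyme genes, writers, erasers, PRDM genes and all protein-coding genes; bars give the share, error bars the 95% Wilson interval, and the fractions on the bars the number of genes. PRDM genes were lowest of the 3 roles in each panel, and their intervals overlapped those of writers and erasers in each.

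The H3K4 writers had a called start at 6 of 8 genes. Positions are given relative to the outer 5' end, negative upstream. KMT2A, which encodes MLL1 and is known for the control of HOX genes, was called at 4 bp. Its nearest relative KMT2B was called at 12 bp. KMT2E, a SET-domain gene whose product has no settled enzyme activity, was called at −7 bp. SETD7, which also methylates proteins other than histones, was called at −1 bp and again at 299 bp. SETD1A, a catalytic subunit of the COMPASS complexes that trimethylate H3K4 at promoters, was called at 2 bp, with an opposite-strand call 116 bp upstream. These 5 genes thus had a call on the sense strand within 12 bp of the annotated end. The 300-base promoter window of SETD1A is shown because it holds both starts of such a pair. It runs 5' to 3' on the sense strand, and the capitals mark the base called on the opposite strand and then the base called for SETD1A.
SETD1A, chr16:30957504-30957803, plus strand: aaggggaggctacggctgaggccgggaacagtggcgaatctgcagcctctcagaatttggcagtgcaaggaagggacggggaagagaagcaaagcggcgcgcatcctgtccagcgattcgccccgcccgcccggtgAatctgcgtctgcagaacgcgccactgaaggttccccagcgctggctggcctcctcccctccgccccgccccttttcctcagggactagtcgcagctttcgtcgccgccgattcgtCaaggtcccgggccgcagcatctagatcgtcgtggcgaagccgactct

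The sixth H3K4 writer by the rule was KMT2D, and its call was not at its 5' end. KMT2D encodes the MLL4 protein, which with MLL3 from KMT2C monomethylates H3K4 at enhancers. The qualifying call lay −51 bp from the 3' end, ran antisense to the gene, and was paired over 179 bp with the start of PRKAG1 and DDN-AS1. At the 5' end of KMT2D both calls were antisense, at −82 bp and at 1355 bp, and no sense call was present. KMT2C had no call at its ends and 1 antisense call 69.1 kb inside the gene. SETD1B, the paralogue of SETD1A, had no call at its ends but 13 calls inside, described with the internal calls. Its strand is not in the promoter table.

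Of the 6 H3K9 writers, 3 had a called start. EHMT1, which encodes GLP, was called at −1 bp, and an opposite-strand call 147 bp upstream was the start of ARRDC1-AS1. SUV39H2, which trimethylates H3K9 in pericentric heterochromatin, was also called at −1 bp, 228 bp from the start of its divergent transcript SUV39H2-DT. SETDB2 was called at 193 bp, at a position that it shares with the SETDB2-PHF11 readthrough. SUV39H1, the paralogue of SUV39H2 on the X chromosome, had its call 1211 bp inside the outer end and 31 bp downstream of a listed start, with a divergent partner at 178 bp. EHMT2, which encodes G9a, the partner of GLP, had no call of any kind. The same held for SETDB1, which silences retroelements with TRIM28. EHMT2 lies in the longest run of neighbouring protein-coding genes without a called start, 172 genes from GPX6 to ZBTB9 on chromosome 6 between 28503296 and 33457544. EHMT2 thus shared the lack of a called start with its neighbours on both sides, and the cause was not tested. The EHMT1 promoter window is shown first whole, with the base of the ARRDC1-AS1 start and that of EHMT1 in capitals. It is then shown as 60 bases before to 30 bases after the EHMT1 call, with the called base and the next base in capitals, the form used for all shorter sequences below.
EHMT1, chr9:137618755-137619054, plus strand: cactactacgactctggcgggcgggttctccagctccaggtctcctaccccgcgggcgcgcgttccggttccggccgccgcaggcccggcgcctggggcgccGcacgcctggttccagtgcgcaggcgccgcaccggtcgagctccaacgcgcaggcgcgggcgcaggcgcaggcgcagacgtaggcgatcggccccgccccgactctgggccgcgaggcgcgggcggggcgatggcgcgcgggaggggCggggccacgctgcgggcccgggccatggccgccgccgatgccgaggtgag
EHMT1, chr9:137618944-137619034, plus strand: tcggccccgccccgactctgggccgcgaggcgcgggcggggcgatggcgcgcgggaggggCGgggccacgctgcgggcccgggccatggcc

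The H3K36 writers were called at 3 of 4 genes. NSD2, which dimethylates H3K36, was called at −13 bp, and an opposite-strand call lay 400 bp upstream. NSD3 was called 8 bp inside its upper end, 166 bp from the start of LETM2, and also −417 bp from its lower end. Its strand is not in the promoter table. SETD2, the enzyme that trimethylates H3K36 during elongation, was called at 309 bp, and a further sense call at 747 bp lay 20 bp from its listed start and 122 bp from the start of KIF9-AS1. NSD1 had no call at its outer end. Its sense calls were at 1475 and 1975 bp, the second of them at the base of a listed start and 136 bp from an opposite-strand call. NSD1 thus counted as not called at its outer end and as called at a listed start, and the sequence around the internal start is shown for that reason.
NSD1, chr5:177133713-177133803, plus strand: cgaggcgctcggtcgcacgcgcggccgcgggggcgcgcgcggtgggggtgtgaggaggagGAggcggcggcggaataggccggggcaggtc

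The H4K20 writers had a called start at 2 of 3 genes. KMT5A, which monomethylates H4K20 and is linked to mitosis, was called at 27 bp and at 4300 bp, the second at −479 bp from another listed start. KMT5C, which carries H4K20 to the higher methyl states, was called at −1 bp and had 1 antisense call at 1466 bp. KMT5B, its paralogue, had a single call near the gene, an antisense one at −328 bp that pointed outward. The sequence of KMT5C is shown because, with EHMT1, it had the call nearest to the annotated start among the writers called at an outer end, in alphabetical order of ties.
KMT5C, chr19:55339815-55339905, plus strand: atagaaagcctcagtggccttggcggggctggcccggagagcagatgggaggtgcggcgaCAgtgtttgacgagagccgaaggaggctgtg

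Among the other SETD genes, 3 of 5 were called at an outer end, and the other two, SETD3 and SETD9, at listed starts inside. SETD4 was called at 211 bp and SETD5 at 125 bp. Both faced noncoding genes. SETD5 faced THUMPD3-AS1 at 300 bp. SETD4 faced SETD4-AS1, with opposite-strand calls at gaps of 34 and 288 bp. The farther of them lay at −1 bp from the annotated end of SETD4-AS1. SETD6, which methylates the NF-κB subunit RELA, was called at 54 bp and again at −451 bp. An opposite-strand call 97 bp upstream of the first lay at an outer end of NDRG4, whose strand was not checked. SETD3, better known as an actin histidine methyltransferase, had its call at 5547 bp, at −52 bp from the listed start. SETD9 had sense calls at 775 and 1067 bp, the first at −22 bp from a listed start. None of the 3 called at an outer end had its call within 50 bp of it, whereas all 11 called JmjC erasers had. None of the 2 called LSD erasers had, and the share among called protein-coding genes was 77.6%.

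Both LSD erasers were called. KDM1A was called at 64 bp, with an opposite-strand call 282 bp upstream. KDM1B, which encodes LSD2, was called at 76 bp, and the upstream call at 438 bp was the start of TPMT. Of the 17 JmjC erasers, 11 had a called start. KDM2A and KDM2B, whose products bind unmethylated CpG and demethylate H3K36, were called at 0 bp and at −8 bp. The nearest listed start of KDM2B lay further inside, with the call at −1264 bp from it. KDM4A and KDM4B, demethylases of H3K9 and H3K36, were called at 0 and 1 bp, and KDM4A had a second call at 356 bp. Their relative KDM4D was called at −12 bp, 140 bp from the start of CWC15. The X-linked H3K4 demethylase gene KDM5C and the X-linked H3K27 demethylase gene KDM6A were both called at 0 bp. KDM5A was called at 17 bp and KDM5B at −1 bp, and both act on H3K4. KDM7A, with a PHD finger beside its JmjC domain, was called at 42 bp, and KDM8 at −23 and 421 bp. All 11 lay within 50 bp of the outer end.

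The erasers without a call at an outer end were KDM3A, KDM3B, KDM4C, KDM4E, KDM4F and KDM6B. KDM3A, an H3K9 demethylase gene, had its sense call 4338 bp inside, 11 bp from a listed start. KDM3B, its paralogue, had 1 antisense call at 812 bp. KDM4C had 8 calls inside, of which the sense call 37.2 kb in lay 71 bp from its listed start. KDM6B, which encodes the H3K27 demethylase JMJD3, had 4 sense and 2 antisense calls inside but none within 500 bp of its 2 listed starts. KDM4E and KDM4F, short genes of 2.34 and 1.92 kb next to KDM4D on chromosome 11, had no call in or near them. They share most of their sequence with KDM4D, and how reads matching several of them were treated is not given in the sources used here. Sequences of KDM2A and KDM4A are shown because their calls fell on the annotated first base. That of KDM2B belongs to an internal start, −7 bp from a listed start and 266 bp from the start of KDM2B-DT.
KDM2A, chr11:67119203-67119293, plus strand: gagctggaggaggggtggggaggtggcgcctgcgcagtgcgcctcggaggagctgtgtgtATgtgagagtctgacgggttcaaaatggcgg
KDM4A, chr1:43650089-43650179, plus strand: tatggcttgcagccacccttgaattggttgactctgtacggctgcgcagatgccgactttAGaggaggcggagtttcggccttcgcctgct
KDM2B, chr12:121580223-121580313, minus strand: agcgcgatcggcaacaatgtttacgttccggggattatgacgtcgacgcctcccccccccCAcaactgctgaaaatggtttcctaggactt

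The PRDM genes with a called start included PRDM2, PRDM4, PRDM10 and PRDM15. PRDM4 was called at 1 bp with no upstream partner within 500 bp. PRDM2, which encodes the RIZ protein, was called at 15 bp, and a call on the opposite strand lay 1 bp away. A second PRDM2 start, 49.2 kb inside and 22 bp from a listed start, had a divergent partner at 180 bp. PRDM15 had 2 sense calls, at 43 and −454 bp, and 3 antisense calls between them and around them, at −307, −38 and 246 bp. PRDM10 was called at 332 bp, 122 bp from the start of PRDM10-DT. PRDM11 had no call at its outer end but sense calls at 3 bp and at 1 bp upstream of listed starts 53.2 and 86.9 kb inside. Relative to the outer end these called positions lay deeper than those of the other roles, with a median of 43 bp (quartiles 15 and 332) against 4 bp for writers and 0 bp for erasers, over only 5 genes.
PRDM4, chr12:107761106-107761196, minus strand: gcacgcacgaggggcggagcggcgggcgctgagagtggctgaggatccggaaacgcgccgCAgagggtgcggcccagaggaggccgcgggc
PRDM2, chr1:13700143-13700233, plus strand: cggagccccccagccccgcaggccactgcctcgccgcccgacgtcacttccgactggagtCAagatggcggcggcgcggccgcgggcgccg
PRDM11, chr11:45180975-45181065, plus strand: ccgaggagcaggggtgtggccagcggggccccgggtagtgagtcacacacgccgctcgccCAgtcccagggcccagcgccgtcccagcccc

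A further 9 PRDM genes had no called start at an outer end or at a listed start. PRDM1, which drives plasma cell differentiation, PRDM9, which marks meiotic recombination sites, and PRDM7, its near-identical copy, had no call of any kind. PRDM6, PRDM14, a regulator of primordial germ cells, and PRDM16, known from brown fat and blood stem cells, had none either. How reads matching both PRDM7 and PRDM9 were treated is not given in the sources used here. PRDM8, PRDM12, a determinant of pain-sensing neurons, and PRDM13 had antisense calls only. Those of PRDM12 lay at 16.7 and 17.0 kb in a gene of 18.4 kb, those of PRDM13 at 6.70 and 6.99 kb in a gene of 8.73 kb, and that of PRDM8 at 18.1 kb in a gene of 19.1 kb. In these 3 genes the calls were therefore near the 3' end and ran back towards the start.

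**Figure D2:**
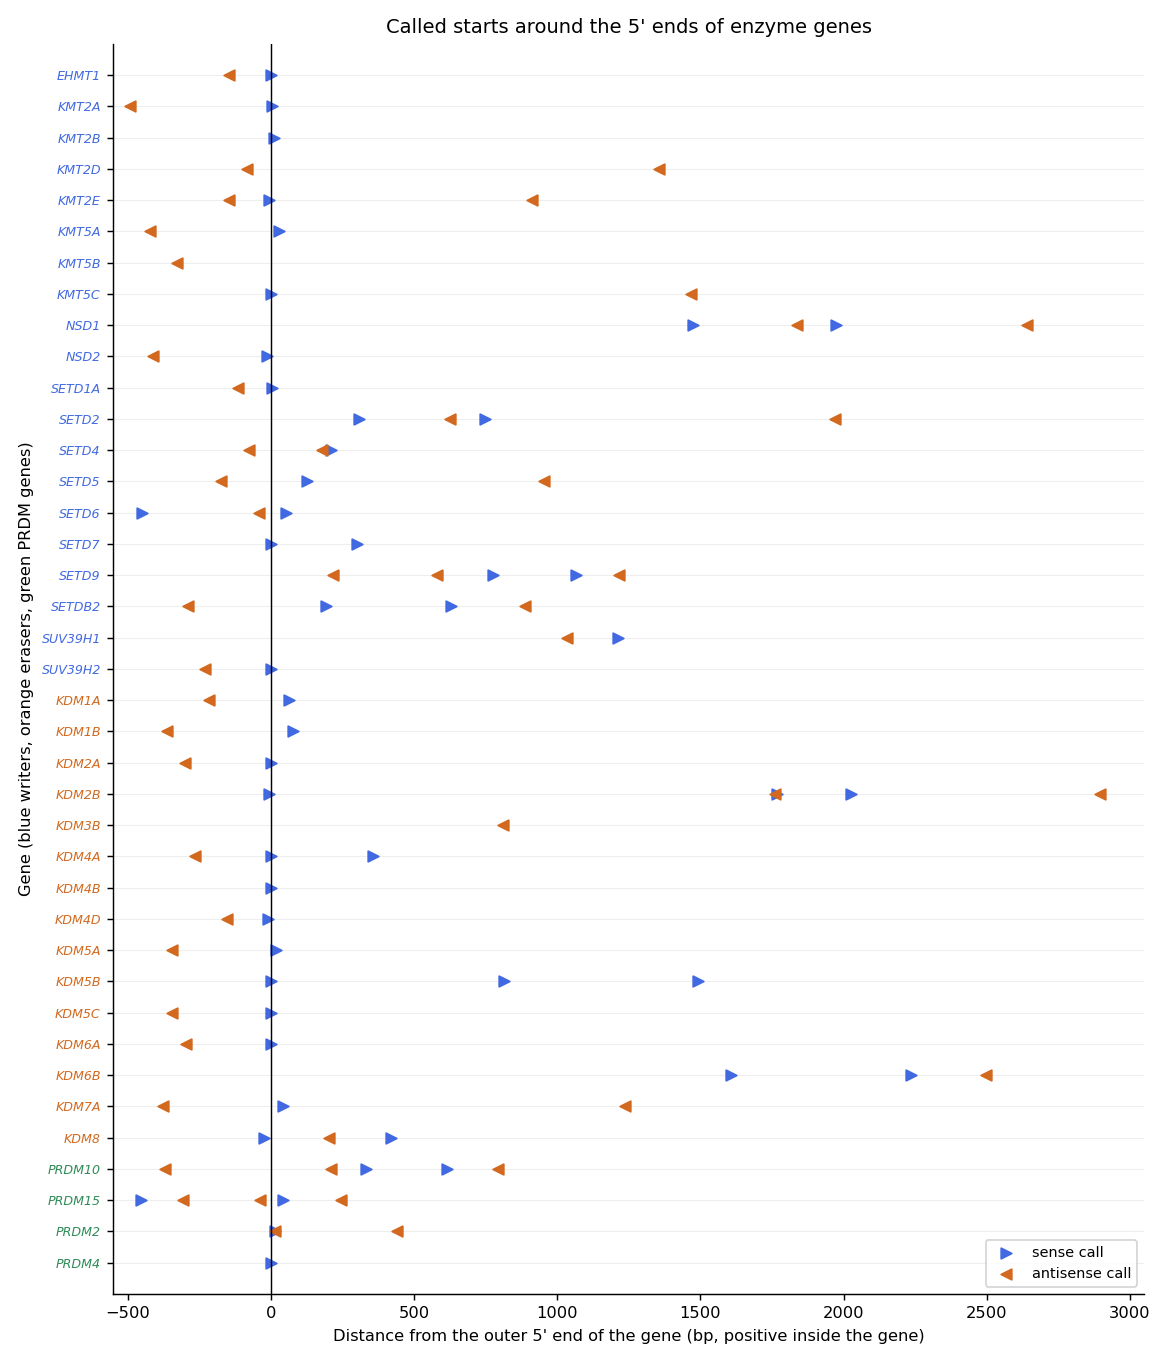
Called starts around the outer 5' ends of the enzyme genes of known strand that had a call between −500 and 3000 bp; the horizontal axis is the distance in bp, positive inside the gene, triangles pointing right are sense calls and triangles pointing left antisense calls. Sense calls cluster at 0 bp in most genes, while NSD1, SETD9, SUV39H1 and KDM6B have theirs between 775 and 2237 bp.

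Across the 35 called genes the median position was 2 bp inside the outer end (quartiles −1 and 48.5 bp), against 4 bp for the 8207 called protein-coding genes (quartiles −1 and 32 bp). The call lay within 10 bp of the end in 45.7% of enzyme genes and 45.9% of protein-coding genes. It lay within 50 bp in 71.4% of enzyme genes, with 84.6% of erasers, 64.7% of writers and 3 of the 5 called PRDM genes, against 77.6% of protein-coding genes. At least 2 calls at the ends were found in 6 genes (17.1%), namely SETD6, SETD7, NSD3, KDM4A, KDM8 and PRDM15, against 15.4% of called protein-coding genes. These values of the enzyme genes were close to those of protein-coding genes in general.

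A divergent partner, an opposite-strand call 0 to 300 bp upstream, was present at 16 of 35 called genes (45.7%, 30.5 to 61.8%), against 50.7% of called protein-coding genes. Writers had one at 9 of 17 genes (52.9%), erasers at 4 of 13 (30.8%, 12.7 to 57.6%) and PRDM genes at 3 of 5. The writer count includes KMT2D, whose call is the antisense one at its 3' end, so that the PRKAG1 start is no upstream partner of a KMT2D start. Without KMT2D it was 8 of 16 writers. Up to 500 bp upstream the count was 25 of 35 (71.4%, 54.9 to 83.7%), against 62.1%, with 13 of 17 writers, 9 of 13 erasers and 3 of 5 PRDM genes. The 9 genes added by the wider limit were KDM2A at 301 bp, KDM5C at 345 bp, KDM5A at 362 bp, KDM7A at 419 bp and KDM1B at 438 bp among the erasers, and NSD2 at 400 bp, KMT5A at 449 bp, SETDB2 at 484 bp and KMT2A at 495 bp among the writers. The median distance to the upstream call within 500 bp was 265 bp in the enzyme genes (quartiles 140 and 362 bp, n = 25). It was 301 bp in erasers (quartiles 282 and 362 bp, n = 9), 179 bp in writers (n = 13, or 197 bp without KMT2D) and 81 bp in PRDM genes (n = 3), against 174 bp in protein-coding genes (quartiles 120 and 265 bp, n = 5097). The upstream calls of erasers were thus mostly farther away than those of protein-coding genes, and only KDM4D, at 140 bp, was closer than the protein-coding median.

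**Figure D3:**
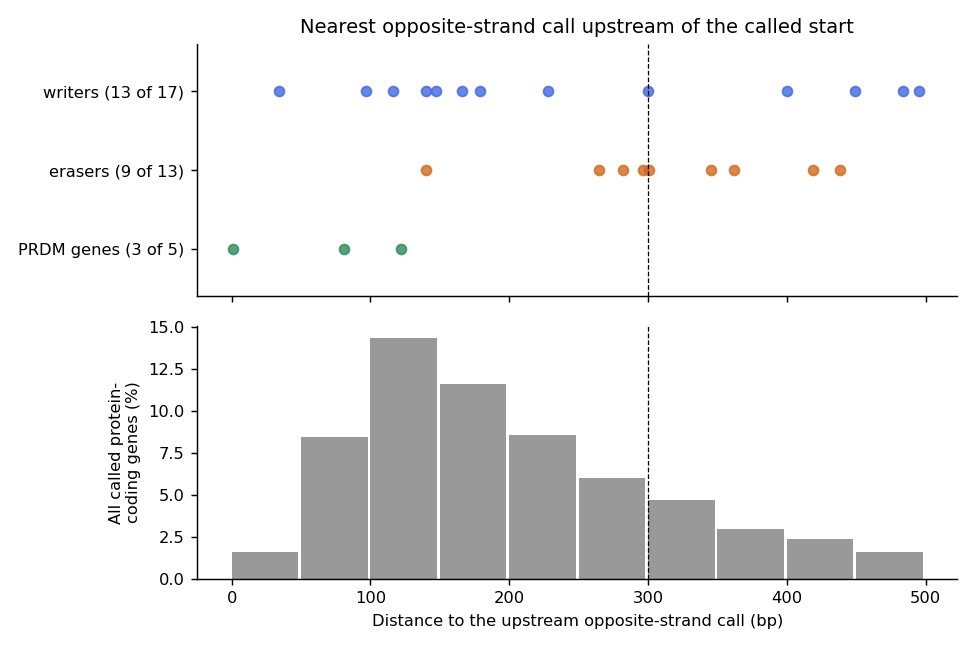
Distance in bp from the called start to the nearest opposite-strand call upstream, up to 500 bp; points in the upper panel are enzyme genes by role, and bars in the lower panel give the percentage of all called protein-coding genes in bins of 50 bp. The dashed line marks the limit of 300 bp; 8 of the 9 erasers shown lie at 265 bp or farther.

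At 15 of the 25 enzyme genes the upstream call also lay at an outer end of another gene, coding or not, and pointed into it. This held for 45.9% of the 5097 protein-coding genes with such a call. The strand of the neighbour was not checked, so that such a call can lie at its 3' end and run antisense to it. Coding neighbours with an end there were PRKAG1 at the 3' end of KMT2D, LETM2 at NSD3, NDRG4 at SETD6, CAB39L at SETDB2, CWC15 at KDM4D, CCDC77 at KDM5A, TPMT at KDM1B and IQSEC2 at KDM5C. Of the 12 antisense or divergent noncoding genes named after an enzyme gene, 7 had a called start: KDM2B-DT, KDM4A-AS1, KDM7A-DT, KMT2E-AS1, PRDM10-DT, SETD4-AS1 and SUV39H2-DT. The 5 without were EHMT2-AS1, PRDM4-AS1, PRDM6-AS1, PRDM8-AS1 and PRDM16-DT. Of these, only PRDM4-AS1 belongs to an enzyme gene that was itself called. None of the 9 pseudogenes of enzyme genes, 4 of them copies of KMT2C and 3 of KMT5A, had a called start or a call inside. Shares over all noncoding genes and all pseudogenes are not given, so that these counts have no background beside them. How reads matching several copies were treated is not known here either.

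Calls inside the gene, over 500 bp from both ends, were found in 29 of 60 enzyme genes (48.3%, 36.2 to 60.7%), against 20.7% of protein-coding genes. The share was 13 of 26 writers, 9 of 19 erasers and 7 of 15 PRDM genes. There were 85 such calls over 5.25 Mb of gene, 1.62 per 100 kb, against 0.667 per 100 kb in protein-coding genes. Writers had 1.94, erasers 1.51 and PRDM genes 1.34 per 100 kb. SETD1B alone held 13 of the 37 writer calls, and without it writers had 24 calls, or 1.29 per 100 kb. In the other roles PRDM11 held 9 of the 19 PRDM calls and KDM4C 8 of the 29 eraser calls. No rate is given without these genes, so that the order of the 3 roles is not settled. Among protein-coding genes the share with an internal call was 7.01% under 5 kb, 33.9% at 80 to 160 kb and 29.1% at 320 to 640 kb, and the difference of the enzyme genes from it was not uniform across length classes. Of enzyme genes of 80 to 160 kb, 11 of 18 had an internal call, against that 33.9%, whereas of those of 20 to 40 kb 2 of 11 had one, against 21.5%. Under 5 kb, 0 of 2 had one. In the remaining classes the enzyme genes were above the protein-coding share. They had 2 of 3 at 5 to 10 kb (against 13.1%), 4 of 7 at 10 to 20 kb (17.5%) and 4 of 10 at 40 to 80 kb (26.5%). At 160 to 320 kb it was 5 of 7 (33.3%), and at 320 to 640 kb 1 of 2. Where the strand is known, 33 internal calls were sense and 38 antisense (46.5% sense), against 47.4% sense in protein-coding genes. Of the sense calls, 19 (57.6%) lay within 500 bp of a listed start, against 43.7% in protein-coding genes.

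**Figure D4:**
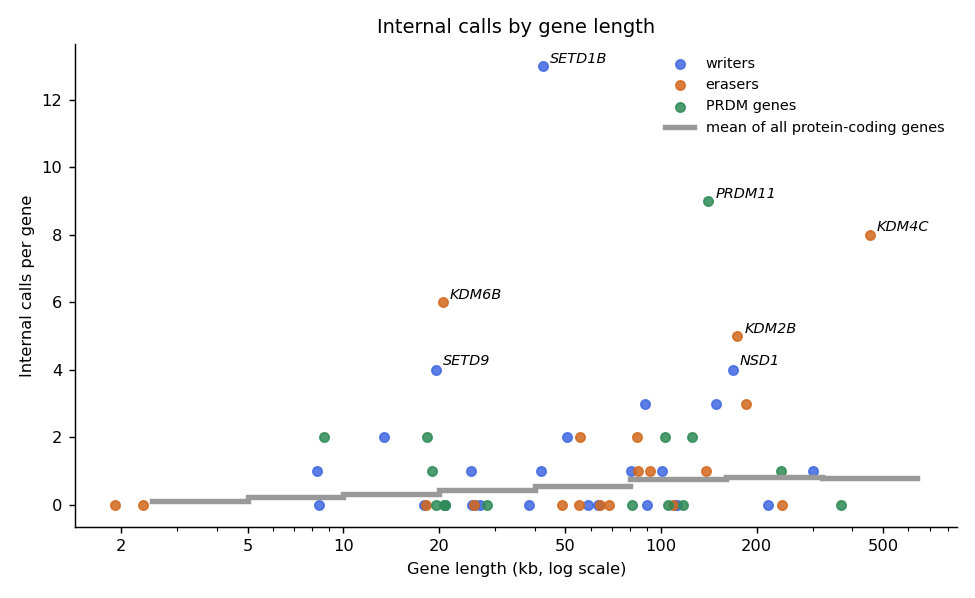
Number of internal calls per gene against gene length in kb on a log scale; points are enzyme genes coloured by role, and the grey steps give the mean over all protein-coding genes of each length class. SETD1B (13 calls), PRDM11 (9), KDM4C (8) and KDM6B (6) stand above the means, which run from 0.125 to 0.829 calls per gene.

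SETD1B had the most, 13 calls in 42.5 kb. Only 11 protein-coding genes (0.0555%) had at least as many. Of these calls 9 were forward, between positions 121800027 and 121804368 of chromosome 12, and 4 were reverse. The stretch overlaps the noncoding gene LINC01089, whose start was the reverse call at 121802943, and another reverse call was the start of RHOF, so that the calls cannot all be assigned to SETD1B. PRDM11 had 9 calls in 2 clusters, 52.4 to 53.2 kb and 86.1 to 86.9 kb inside, each with a sense start at a listed position. In the first cluster 3 antisense calls coincided with starts of LOC105376652. KDM4C had 7 of its 8 calls between 36.3 and 38.1 kb, where the 2 strands alternated in 2 divergent pairs of 125 and 177 bp around the listed start. KDM6B had 6 calls in 20.6 kb, 29.2 per 100 kb, and 178 protein-coding genes (0.898%) had at least as many. Its sense call at 1608 bp was also the start of LOC124904106, and those at 8131 and 10831 bp lay 2431 and 5131 bp downstream of a listed start. KDM2B had 5 internal calls, of which 4 lay between 1760 and 2895 bp and 1 sense call lay 115 kb inside, 76 bp from another listed start. NSD1 and SETD9 had 4 calls each, and KDM4B, SETD2 and SETD3 had 3.

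An antisense call 500 to 2000 bp downstream of the called 5' start was present at 7 of 32 genes (21.9%, 11.0 to 38.8%), against 14.6% of protein-coding genes, a share inside that interval. The genes were KMT2E at 913 bp, SETD5 at 955 bp, SETDB2 at 886 bp, KMT5C at 1466 bp, SETD2 at 1970 bp, KDM7A at 1235 bp and KDM2B at 1760 bp, as distances from the outer end. No PRDM gene was among them. KDM3B and KMT2D had an antisense call in the same range, at 812 and 1355 bp, with no sense call at the outer 5' end or a listed start. NSD1 at 1839 bp, SUV39H1 at 1033 bp and SETD9 at 580 and 1217 bp had antisense calls in that range too. The sense calls of these genes lay over 500 bp inside the outer end.

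Distal divergent pairs, in which both calls lay over 1000 bp from every gene end, numbered 921 in the data. At least 1 lay within 50 kb of 14 enzyme genes (23.3%, 14.4 to 35.4%), against 9.85% of protein-coding genes, for 6 of 26 writers, 5 of 19 erasers and 3 of 15 PRDM genes. With both calls over 2000 bp from every gene end it was 8 of 60 (13.3%, 6.91 to 24.2%), against 7.16% of protein-coding genes. The stretch searched includes the gene itself, and the part of gene length in these shares was not tested. Several of these pairs lay at starts of the genes themselves. Those inside NSD1, SUV39H1, PRDM2, PRDM11 and 2 inside KDM4C lay 0 to 346 bp from a start that the promoter table lists. NSD1, SUV39H1, PRDM2 and PRDM11 were counted only through such pairs. Pairs away from listed starts were those 122 kb inside KDM4B, 19.0 kb from KDM2A in GRK2, 7.55 kb from KMT5B, 29.9 kb from KMT2E in LINC01004, 33.9 kb from PRDM7 in DRC4, and 2 pairs 1.68 and 2.20 kb from KMT2B in IGFLR1. KDM4E and KDM4F shared a pair in SRSF8, 41.1 and 17.3 kb away. KDM4C had 3 further pairs, 39.1, 39.4 and 39.8 kb from its end. The pair in SETD1B lay in its overlap with LINC01089. KDM4E, KDM4F, KMT5B and PRDM7 had such a pair outside the gene and no called start at an outer end or at a listed start.

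The promoter windows of RefSeq (GRCh38.p14), which run from 250 bases before to 50 bases after an annotated start, were available for 53 enzyme genes. Genes that were not matched included KDM4E, NSD3, PRDM6, PRDM14, PRDM16 and SETD1B. For each gene the window nearest to the outer 5' end was used. The median ratio of observed to expected CpG was 0.926 in the enzyme genes, against 0.762 in 15812 protein-coding genes, and median GC content was 66.0% against 62.7%. Writers had 0.935, erasers 0.920 and PRDM genes 0.802. The 34 enzyme genes with a same-strand call at that start had a median of 0.963, all of them above 0.6 (range 0.650 to 1.26). The 19 without had 0.713, and 14 of them were above 0.6. These 19 include KDM2B, NSD1, PRDM11, SETD9 and SUV39H1, which had a same-strand call at another listed start. In protein-coding genes the medians were 0.876 with a call and 0.500 without, and 92.8% and 43.8% of the windows were above 0.6. A CpG-rich window was thus also found at uncalled genes, for example KMT5B at 1.09, PRDM12 at 1.04, KMT2C at 0.985 and PRDM8 at 0.969. The lowest ratios of the enzyme genes were those of KDM4F at 0.132, SUV39H1 at 0.301 and NSD1 at 0.345, and the calls of SUV39H1 and NSD1 lay at listed starts other than the window used here.

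**Figure D5:**
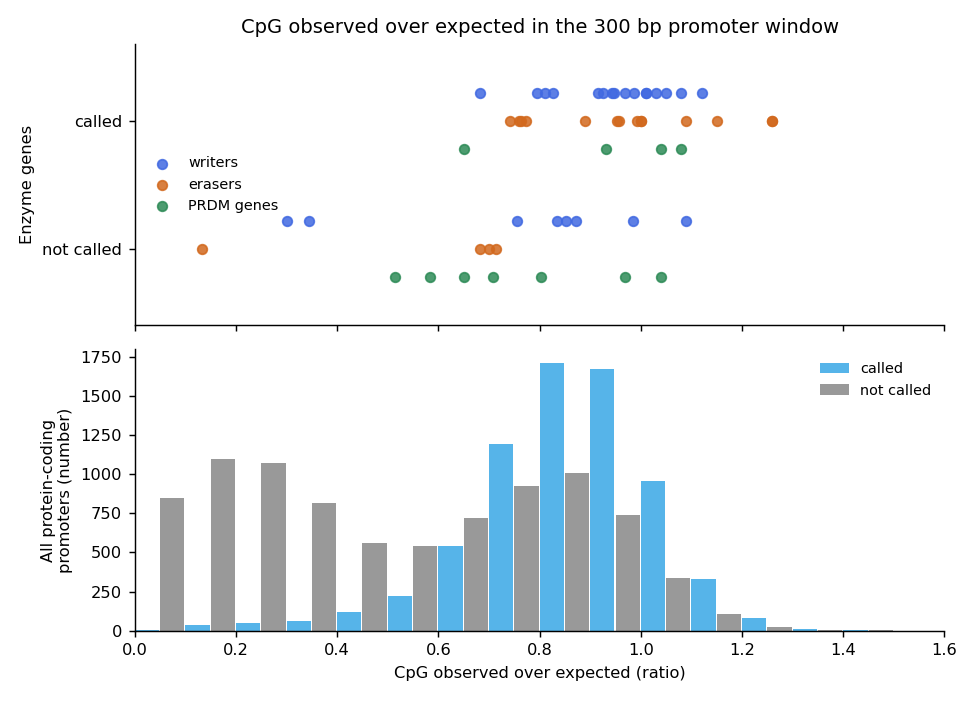
Ratio of observed to expected CpG in the 300-base promoter window; points in the upper panel are enzyme genes by role, split into those with and without a same-strand call within 500 bp of that start, and the lower panel gives the number of protein-coding promoters by the same split. Enzyme genes with such a call lie between 0.650 and 1.26, and those without, some of them called at another listed start, between 0.132 and 1.09.

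Motif letters were counted in these windows on both strands, as a description and not as binding sites. The GC box GGGCGG was in 71.7% of enzyme gene windows, against 58.3% of protein-coding windows, and the CCAAT box CCAAT in 37.7% against 36.4%. The ETS core TTCCGG was in 24.5% against 22.7%, and the E-box CACGTG in 17.0% against 8.82%. The TATA letters TATAAA were in 1 window, that of PRDM11 (1.89% against 9.75%), 187 bases before a start that was not called. The erythroid GATA letters GATAAG were also in 1 window, that of KDM4D (1.89% against 5.12%). The NRF1 core GCGCATGC was in the window of SETD4 (1.89% against 4.28%), where matches on both strands overlapped. The YY1 core AAGATGGC was in 4 windows (7.55% against 3.86%), those of KMT2B, PRDM2, SUV39H2 and KDM5C. All 4 matches were on the sense strand and at called genes. In protein-coding genes this core was likewise more frequent in windows with a same-strand call (7.16%) than in those without (1.25%). Its first base lay 1 base downstream of the called base in KMT2B and in PRDM2, as the PRDM2 sequence above shows, 8 bases downstream in KDM5C and 21 in SUV39H2.

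The letters at the called base were compared over all calls that fall in the window of any listed start, so that a gene can give more than 1 call, with 34 calls at enzyme genes and 6771 at protein-coding genes. The called base was a C in 55.9% of enzyme gene calls, against 51.4%, and was followed by A, forming the letters CA of the usual initiator, in 35.3% against 37.2%. CA that ended on the called base was found at 0 of 34 enzyme gene calls and at 1.33% of the others. KMT5C, PRDM4 and PRDM2 above are examples of CA with the call on its C. Transcripts usually begin on the purine of this step. Whether the deposited position is the first base of the RNA or the base before it is not given in the sources used here. Distances of 1 bp, such as those of EHMT1, SETD7 and SUV39H2, are therefore not resolved.

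The context genes were partners of these enzymes, or methylation enzymes and PRC2 genes outside the naming rule. They had called starts at 39 of 54 genes (72.2%, 59.1 to 82.4%), against the 41.4% of all protein-coding genes given above. The COMPASS and MLL complex subunits were called at 11 of 13 genes, including WDR5, ASH2L and RBBP5, and not at MEN1 and BOD1. The PRC2 genes, which write H3K27 methylation and are outside the naming rule, were called at 7 of 11, with EZH2, EED and SUZ12 called and EZH1, PHF1, PHF19 and AEBP2 not. Other methyltransferase genes were called at 7 of 9, without SMYD1 and MECOM, and other demethylase genes at 4 of 6, without PHF8 and HR. The H3K9 cofactors were called at 5 of 7, among them TRIM28, whose partner SETDB1 was not called, and CBX1 and WIZ were not. The LSD1 partners were called at 5 of 8, including RCOR1 and HDAC1 but not PHF21A, GFI1 or the erythroid repressor gene GFI1B. GFI1B, MEN1, PHF19 and WIZ, with no call at their outer ends, each had a same-strand call within 500 bp of a listed start.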

How the data were processed

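Wild-type HUDEP-2 cells were profiled by PRO-cap in 2 biological replicates. Newly made RNA took up biotin in a nuclear run-on and was pulled down with streptavidin, per the labels' protocols. BWA 0.7.16a, Picard, SAMtools 1.17, deepTools 3.5.4 and the build hg38 are named in the submitters' processing notes. How starts were called (TSScall), how reads matching several places were handled and how replicates were combined is not given in the sources used here. Positions that the authors deposited are coordinates and no other measurement, 1 base per call. Every one of the 26395 calls has a score of 0 in the deposited lists. Depth is therefore unknown, and precision is given as 95% Wilson intervals for counting error. Calls of 1 strand lay at least 251 bp apart.

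The 26332 calls on chromosomes 1 to 22 and X were set against 58419 genes of RefSeq GRCh38.p14, with strand and listed starts from its promoter table (81 starts of the enzyme genes). The remaining 63 calls and 1 enzyme gene on other chromosomes were not analysed here. Called starts, divergent partners (300 bp), internal calls, distal pairs (over 1000 bp from gene ends) and motif letters were counted with Python 3.11.15, pandas 2.3.3, numpy 2.4.6 and SciPy 1.17.1, and figures were drawn with matplotlib 3.10.9. The steps were tested on simulated data. No test was run, since the members and lists were chosen with earlier results of these data known.

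Members could be named, with values for each called and each uncalled gene, the 10 with most internal calls and all with a distal pair. Some items that this rule names are not reported here. Context genes without a called start were named where a list had 5 or fewer. Short sequences were those of the 2 called genes per role closest to their annotated start. The count at listed starts, the antisense calls downstream, the upstream calls that start another gene, the counts without KMT2D or SETD1B, the motif positions and the sequences of SETD1A, NSD1, PRDM11 and KDM2B and the whole EHMT1 window were chosen after the calls had been seen. Alternatives were other windows, partner and pair distances and distal limits, the annotated 5' end only, calls not shared with another gene, and lists without near-identical copies or without genes in the run of uncalled genes.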

Additional observations from a re-analysis of the deposited data

How the results depend on the processing

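Of 66 alternatives to 19 results, 55 moved a share by no more than its interval or a count by no more than 1.5 times, and 11 moved it further. The share of enzyme genes with a called start was 51.7% with a window of 200 bp and 61.7% with 1000 bp, with 3 of 15 PRDM genes called at 200 bp and 5 at 1000 bp, and became 73.6% when same-strand calls at any listed start counted, an alternative chosen after the data had been seen. Shares of protein-coding genes at windows of 200 and 1000 bp are not given here. The divergent partner depended on its limit by construction. At 150 bp it was 9 of 35 called enzyme genes (25.7%), 5 of 17 writers (29.4%) and 1 of 13 erasers (7.69%). Among called protein-coding genes, the nearest upstream opposite-strand call lay at 0 to 50 bp in 1.61% and at 50 to 100 bp in 8.44%. It lay at 100 to 150 bp in 14.3%. At 500 bp the shares of enzyme genes, writers and erasers were 71.4%, 76.5% and 69.2%, against 62.1% of called protein-coding genes. A distal limit of 2000 bp lowered the share with a distal pair nearby to 13.3%, against 7.16% of protein-coding genes. Leaving out internal calls near an end of another gene left 23 in writers and 12 in PRDM genes, and leaving out SETD1B, chosen after the data had been seen, left 24 in writers. No paired analysis was possible because the series has 1 group and the call lists name no replicate, and for the same reason neither replicate could be left out. The lists hold no strength, so that no result could be weighted by depth, and transcription below the unknown threshold is not seen.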
